A study of Mus musculus with 35 samples.

Results

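The Krüppel-like factors (KLFs) are transcription factors, and 10 of their genes (*Klf2*, *Klf3*, *Klf4*, *Klf5*, *Klf6*, *Klf7*, *Klf9*, *Klf10*, *Klf11* and *Klf13*) were followed here across pancreatic ductal adenocarcinoma (PDAC) cells growing in 3 organs. The genes were taken by symbol from a count table of 53465 genes, in which each symbol had 1 row. All 10 passed the filter on low counts in every comparison.

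KLF proteins bind GC-rich and CACCC sequences through a set of zinc fingers at their carboxy terminus, a domain they share with the SP proteins, whereas their amino termini recruit different partners. *Klf2* and *Klf4* are known as quiescence and barrier genes of endothelium and epithelium, and *Klf4* also as a gene of epithelial differentiation. *Klf5* is a gene of proliferating epithelial cells, and *Klf6* and *Klf7* are close relatives, of which *Klf6* responds early to injury. *Klf3* encodes a repressor that recruits CtBP proteins. *Klf9*, *Klf10*, *Klf11* and *Klf13* encode factors that recruit the Sin3 corepressor, with *Klf9* known as a glucocorticoid-responsive gene and *Klf10* and *Klf11* known as TGFβ-inducible early genes.

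The study asked how *Smad4*, a mediator of TGFβ signaling, acts on PDAC in different organs. The cells were KC-shSmad4 lines, in which *Ptf1a*-Cre activates the mKate2 reporter in the pancreas and a doxycycline (Dox)-inducible shRNA silences *Smad4*, so that all groups carry the same alleles. Luciferase-transduced cells were put into the pancreas, the spleen (for liver metastases, with the spleen then removed) or the tail vein (for lung metastases) of female athymic nude mice, which lack T cells, and all hosts ate Dox chow first. Dox was kept or withdrawn once tumors had grown for several weeks, and mKate2-positive cells were sorted 7 or 14 days later for RNA-seq. The start after injection was earliest for the pancreas, later for the liver and latest for the lungs. Organ, injection route and time since injection thus changed together. Comparisons between organs cannot separate them, and their parts were not tested. Several independent lines were used, and which line a library came from was not given in the sources used here.

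The 35 libraries held 10 from pancreas, 11 from liver and 14 from lungs. By the study's design the label Smad4 off stands for Dox kept and Smad4 on for Dox withdrawn, and the check of the labels follows below. On day 7 there were 3 off and 2 on for pancreas, 2 off and 3 on for liver, and 4 off and 2 on for lungs. On day 14 there were 2 off and 3 on for pancreas, 3 of each for liver, and 4 of each for lungs. Library totals ran from 11885461 to 43571007 counts on genes, so a gene with 3 counts would read 0.0689 to 0.252 CPM (counting error only), under every member's level. Levels below are CPM, each count over its library's total after scaling by the TMM method of edgeR.

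*Smad4* mRNA, the check of the labels, ran from 69.9 to 143 CPM where the label was Smad4 off (18 libraries) and from 14.8 to 22.4 CPM where it was Smad4 on (17 libraries). The order was thus against the labels in every organ, and libraries are named by their labels throughout, with each difference given as labelled on against labelled off. The liver library labelled off on day 7 from mouse 2, the only library labelled paired-end, stood apart from the other liver libraries. Its 8 fibroblast markers summed to 36077 CPM against 261 to 4353 CPM in the other 10 liver libraries, and its 5 acinar markers to 325 CPM against at most 0.538 CPM. Its 5 carcinoma markers summed to 3576 CPM against 10811 CPM or more, and its 6 hepatocyte markers to 1.32 CPM against 16.9 CPM or more. In the fibroblast, carcinoma and hepatocyte sums this library lay nearer to the pancreas libraries than to the liver libraries, so the main results that use it are given with and without it. The epithelial keratins and *Epcam* were detected in all 35 libraries. Counts on the mitochondrial gene *mt-Co3* were present in 10 libraries, this one included and none from the pancreas, and absent from the other 25.

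The promoters of 3 members are shown, 2 for their differences below and 1 for its letters. *Klf2* was the member that differed most by label, *Klf9* the member called between organs, and *Klf3* had the most CACCC matches. On GRCm38, *Klf2* (ENSMUSG00000055148) spans chr8:72319033-72321656 and *Klf3* (ENSMUSG00000029178) chr5:64803388-64832901. *Klf9* (ENSMUSG00000033863) spans chr19:23141226-23166911 and *Klf5* (ENSMUSG00000005148), named often below, chr14:99298691-99315036, all on the plus strand. Sequences are from RefSeq on GRCm38.p6, 250 bases before to 50 after the start, and 8 of the 10 members had an entry (all but *Klf5* and *Klf10*). In *Klf2* (chr8:72318812-72319111, plus strand) the capitals mark a MEF2 box, through which MEF2 factors are known to drive this gene. In *Klf3* (chr5:64803271-64803570, plus strand) and *Klf9* (chr19:23140976-23141275, plus strand) they mark CACCC or its reverse complement.

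Klf2: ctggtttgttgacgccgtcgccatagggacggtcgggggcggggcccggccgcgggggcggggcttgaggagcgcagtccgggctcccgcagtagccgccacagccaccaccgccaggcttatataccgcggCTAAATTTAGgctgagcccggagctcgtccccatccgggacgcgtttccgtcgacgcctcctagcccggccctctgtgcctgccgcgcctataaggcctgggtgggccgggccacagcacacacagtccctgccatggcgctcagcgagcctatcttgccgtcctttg
Klf3: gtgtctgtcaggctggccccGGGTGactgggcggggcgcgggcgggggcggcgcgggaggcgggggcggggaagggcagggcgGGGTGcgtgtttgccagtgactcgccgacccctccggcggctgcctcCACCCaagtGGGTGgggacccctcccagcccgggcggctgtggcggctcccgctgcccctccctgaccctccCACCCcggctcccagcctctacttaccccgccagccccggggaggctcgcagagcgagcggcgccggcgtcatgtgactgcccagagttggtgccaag
Klf9: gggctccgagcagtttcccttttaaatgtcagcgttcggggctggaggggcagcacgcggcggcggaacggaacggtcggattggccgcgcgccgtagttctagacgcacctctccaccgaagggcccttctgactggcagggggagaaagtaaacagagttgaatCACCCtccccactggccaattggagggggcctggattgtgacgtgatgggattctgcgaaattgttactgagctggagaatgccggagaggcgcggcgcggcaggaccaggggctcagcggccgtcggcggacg

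The MEF2 box, searched on both strands, was present in 0.557% of 32851 promoters of the same length and in 1 of the 8 members. CACCC was present in 57.5% of all promoters, and in the members it occurred 5 times in *Klf3*, 3 times in *Klf7*, in 1 place each in *Klf2*, *Klf9* and *Klf13*, and not in *Klf4*, *Klf6* or *Klf11*. The SP-type box GGGCGG was found in 35.7% of all promoters and in 7 of the 8 members, all but *Klf9*. The members' promoters were 58.3% to 77.7% G and C, against a median of 52.7% over all promoters. These are letter matches only, and binding to them was not measured.

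Across the 35 libraries, *Klf6* was the most abundant member per transcript length, at a median of 198 CPM per kb (range 78.2 to 323), above *Klf4* in 35 of 35 libraries. *Klf4* followed at 88.1 CPM per kb and lay above *Klf10* in 30 of 35. *Klf10* (62.3 CPM per kb) and *Klf2* (61.6 CPM per kb) could not be ordered, since *Klf10* was the higher in 17 of 35 libraries. *Klf5* stood at 35.2 CPM per kb, below *Klf2* in 27 of 35 libraries and above *Klf9* in 33. Below them came *Klf9* (21.6 CPM per kb), *Klf13* (18.7), *Klf3* (12.2), *Klf11* (10.8) and *Klf7* (3.05), with neighbours crossing in some libraries except for *Klf7*, which was the lowest in all 35. The order moved with the organ, with *Klf2* above *Klf10* by median in the pancreas (85.4 against 37.7 CPM per kb) and below *Klf5* in the liver (35.5 against 46.0 CPM per kb).

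**Figure D1:**
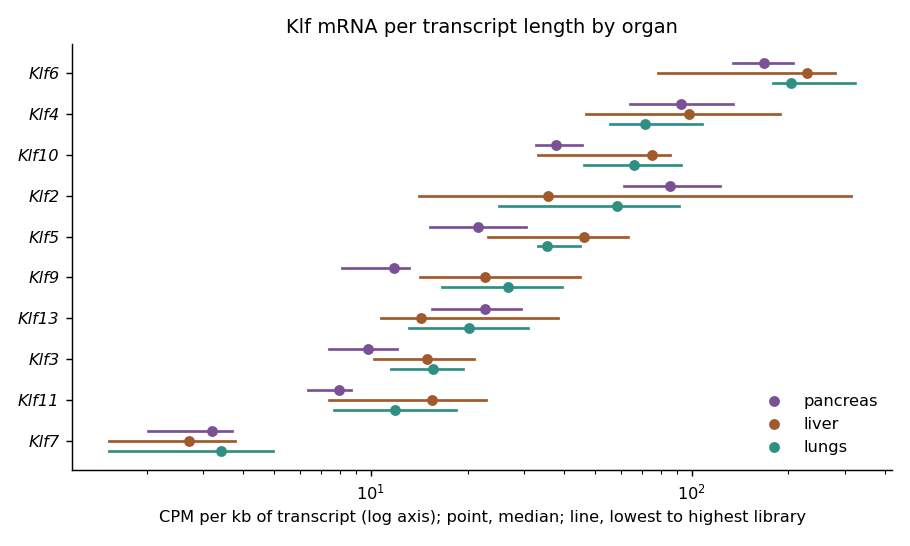
Level of each *Klf* gene in CPM per kb of transcript (log axis), by organ, with the median as a point and the lowest to highest library as a line (10 pancreas, 11 liver and 14 lung libraries). *Klf6* is highest and *Klf7* lowest in each organ, and the liver line of *Klf2* is the longest, from 14.2 to 312 CPM per kb.

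Between organs, the comparison asked whether the family's mRNA differed between primary tumors and metastases. Labels and days were averaged with equal weight in a fit of all 12 groups. Injection route and time since injection differed along with the organ, and their part in the differences below was not tested. Liver and lung libraries held more *Klf3*, *Klf5*, *Klf9*, *Klf10* and *Klf11* mRNA than pancreas libraries, by 0.58 to 1.25 on the log2 scale. A gene was called at an adjusted *P* under 0.05 and a fold over 2. By that rule 1 of 10 members was called between lungs and pancreas, where 21.8% of 17547 genes were called, 0 of 10 between liver and pancreas (20.9%) and 0 of 10 between liver and lungs (8.57%). At the adjusted *P* alone, 6 members were higher and 0 lower in lungs against pancreas (27.1% and 21.1% of all genes). In liver against pancreas, 5 were higher and 1 lower (25.6% and 20.8%), and in liver against lungs 0 passed (20.4% of genes in either direction). The median log2 fold change over the members was 0.53 in lungs against pancreas and 0.46 in liver against pancreas, beside 0.06 and 0.05 over all genes. When the paired-end library was left out, these medians over the members were 0.52 and 0.44.

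*Klf9*, the glucocorticoid-responsive member, lay between 26.5 and 42.9 CPM in the 10 pancreas libraries (median 38.6). It lay between 54.5 and 128 CPM in the 14 lung libraries (median 87.3) and between 46.5 and 147 CPM in the 11 liver libraries (median 74.0). Neither metastatic range overlapped the pancreas range. Lungs exceeded pancreas by 1.25 ± 0.17 (SE) on the log2 scale, 2.37-fold (edgeR adjusted *P* = 1.29e-06). The call held in each of the 35 fits that left out 1 library, at 1.06 to 1.35. Liver exceeded pancreas by 1.00 ± 0.17 (adjusted *P* = 3.29e-05), just under 2-fold.

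*Klf5*, the gene of proliferating epithelium, was measured at 79.5 to 158 CPM in the pancreas (median 112), 173 to 234 CPM in the lungs (median 184) and 120 to 329 CPM in the liver (median 239). The lung and pancreas ranges did not overlap, whereas 2 liver libraries, both labelled off on day 7, fell inside the pancreas range. The log2 differences were 0.90 ± 0.08 for lungs against pancreas and 0.97 ± 0.09 for liver against pancreas (edgeR adjusted *P* = 6.84e-09 and 4.90e-09). These were the smallest adjusted *P* values among the members in both comparisons, beside folds of 1.87 and 1.96.

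Both TGFβ-inducible members were lower in pancreas than in either metastatic organ. *Klf10* rose from a median of 158 CPM in the pancreas (range 136 to 190) to 275 CPM in the lungs (192 to 388) and 313 CPM in the liver (139 to 357), with log2 differences from pancreas of 0.86 ± 0.16 and 0.70 ± 0.16 (edgeR adjusted *P* = 8.82e-05 and 0.0011). *Klf11* rose from 34.5 CPM (27.5 to 37.5) to 51.7 CPM in the lungs (33.3 to 80.0) and 67.5 CPM in the liver (32.1 to 98.9), with differences of 0.71 ± 0.15 and 0.82 ± 0.15 (adjusted *P* = 0.000255 and 7.79e-05). The repressor gene *Klf3* rose from 110 CPM (83.4 to 136) to 176 CPM in the lungs (130 to 218) and 168 CPM in the liver (115 to 235), with differences of 0.67 ± 0.12 and 0.58 ± 0.12 (adjusted *P* = 3.39e-05 and 0.000262). The ranges of pancreas and lungs overlapped for *Klf3* and *Klf11* and not for *Klf10*. The differences of liver from pancreas without the paired-end library were 0.81 for *Klf10*, 0.82 for *Klf11* and 0.59 for *Klf3*.

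*Klf2* went the other way. Pancreas libraries held 114 to 226 CPM (median 158), lung libraries 46.3 to 168 CPM (median 108) and liver libraries 26.2 to 577 CPM (median 65.6), so that all 3 ranges overlapped. Liver against pancreas was -0.99 ± 0.26 on the log2 scale (edgeR adjusted *P* = 0.00305), just under 2-fold, and lungs against pancreas was -0.58 ± 0.25 (adjusted *P* = 0.0567). Without the paired-end library the liver difference of *Klf2* was -1.54 ± 0.23, beside 1.01 for *Klf5* and 1.00 for *Klf9*. *Klf2* was then also lower in liver than in lungs, by -0.96 ± 0.21 (adjusted *P* = 0.00160), where it had been -0.41 ± 0.24 with that library (adjusted *P* = 0.253), and lower in lungs than in pancreas (-0.58 ± 0.19, adjusted *P* = 0.0127).

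The other members differed less between organs. *Klf6* was higher in lungs than in pancreas by 0.38 ± 0.15 (edgeR adjusted *P* = 0.0318) and passed in 27 of the 35 fits that left out 1 library. *Klf4*, *Klf7* and *Klf13* passed in no comparison of organs with all libraries. *Klf4* passed lower in lungs than in pancreas without the paired-end library, by -0.34 ± 0.14 (adjusted *P* = 0.0495). *Klf13*, at 288 CPM in the paired-end library against 80.7 to 164 CPM in the other liver libraries, was lower in liver than in pancreas and lungs without it, by -0.64 ± 0.15 and -0.55 ± 0.14 (adjusted *P* = 0.00110 and 0.00691).

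**Figure D2:**
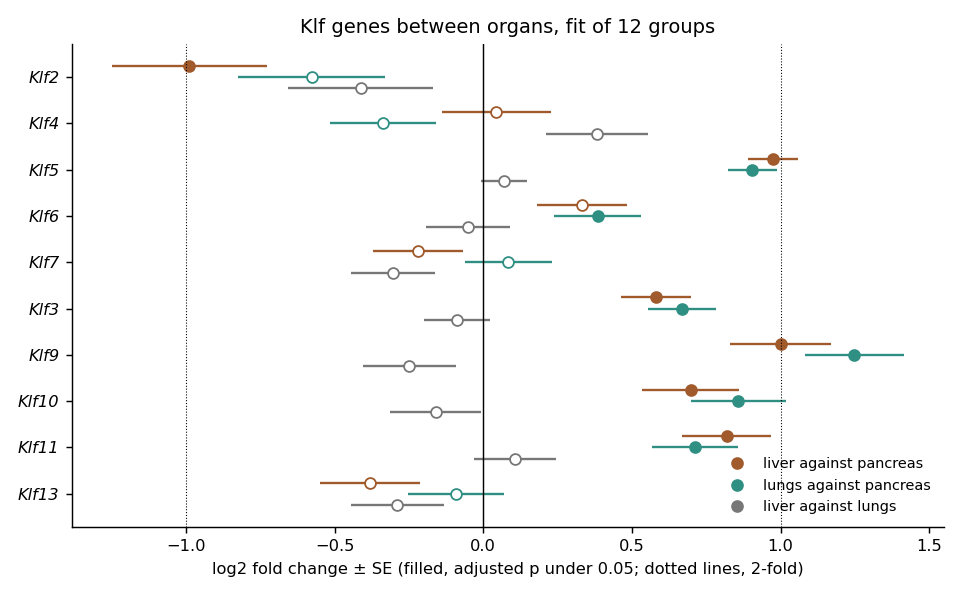
Log2 fold changes of the *Klf* genes between organs from the fit of 12 groups, with SE as bars, filled points for an adjusted *P* under 0.05 and dotted lines at 2-fold. *Klf3*, *Klf5*, *Klf9*, *Klf10* and *Klf11* lie to the right of 0 in both metastatic organs against pancreas, and no gene has a filled point in liver against lungs.

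Markers of other cells moved with the organ as well. The 8 fibroblast markers summed to 9252 to 25348 CPM in the pancreas and to 161 to 1994 CPM in the lungs, with the liver values given above, and 8 of 8 were called lower in each metastatic organ. The 10 endothelial markers summed to 33.2 to 50.0 CPM in the pancreas, 51.1 to 124 CPM in the lungs and 12.3 to 86.3 CPM in the liver, and the acinar markers to 567 to 2737 CPM in the pancreas and at most 0.495 CPM in the lungs. The 5 carcinoma markers moved the other way and passed higher, 5 of 5, in both metastatic organs (median log2 1.64 in liver and 1.03 in lungs), with median sums of 13018 CPM in liver, 8055 in lungs and 3875 in pancreas. The part of any of these cells in the members' differences was not tested, and fewer cells of a type cannot be told apart from less RNA per cell. Among libraries without *mt-Co3* counts, *Klf9* differed by 1.19 and *Klf5* by 0.90 between lungs and pancreas, and *Klf2* by -1.47 between liver and pancreas (log2, no test). No pancreas library had such counts.

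The label comparison set libraries labelled on against those labelled off for each member in each organ and at each time. The study's question here was the restoration of *Smad4*, whose mRNA ran against the labels. No member was called in any of the 6 comparisons within an organ and day. On day 7 the share of all genes called was 1.33% for pancreas, 0.444% for liver and 0% for lungs. On day 14 it was 4.64% for pancreas, 0% for liver and 0.0271% for lungs. In the lungs on day 7 and the liver on day 14 the 0 genes called by edgeR stood beside 793 of 15193 and 1447 of 14947 at an unadjusted *P* under 0.05. With no difference a share of about 0.05 would fall under that threshold. With the mouse number as a block in the lungs on day 14, the number of genes called rose from 4 to 109 of 14751 tested, and 0 members were called in either fit. With a covariate for *mt-Co3* counts instead, 127 genes were called. At the adjusted *P* alone, *Klf3* was higher by 0.39 ± 0.10 and *Klf13* lower by -0.42 ± 0.08 in the pancreas on day 14 (adjusted *P* = 0.0419 and 0.0156, with 12.9% of all genes passing). Each of them passed in 1 of the 5 fits that left out 1 library.

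Averaged over organs and days, 0 of 10 members were called (6% of genes) and 3 passed the adjusted *P* (24.6% of genes). *Klf2* was lower in libraries labelled on by -0.77 ± 0.21 (edgeR adjusted *P* = 0.00696). *Klf5* was higher by 0.35 ± 0.07 (adjusted *P* = 0.000363) and *Klf3* by 0.28 ± 0.09 (adjusted *P* = 0.0260). Without the paired-end library *Klf2* stood at -0.40 ± 0.16 (adjusted *P* = 0.0797), *Klf5* at 0.32 ± 0.07 (0.00154) and *Klf3* at 0.28 ± 0.10 (0.0498).

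*Klf2* in the liver showed the largest label difference of any member. On day 7 the 2 libraries labelled off held 69.8 and 577 CPM and the 3 labelled on held 28.8, 31.0 and 32.5 CPM. On day 14 the 3 labelled off held 185, 83.2 and 76.1 CPM and the 3 labelled on held 29.8, 65.6 and 26.2 CPM. All 6 liver libraries labelled on lay under all 5 labelled off, also with the paired-end library (577 CPM) set aside. Within 1 day the difference did not pass, at -3.46 ± 0.83 on day 7 and -1.55 ± 0.51 on day 14 (edgeR adjusted *P* = 0.0841 and 0.414). Averaged over both days, a contrast chosen after seeing the data, it was -2.45 ± 0.37, 5.46-fold lower (adjusted *P* = 2.75e-05, with 15.7% of genes called), and -1.34 ± 0.30 without the paired-end library (adjusted *P* = 0.00291).

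Elsewhere the label difference of *Klf2* did not pass. In the pancreas the libraries labelled off held 126, 114 and 206 CPM on day 7 and 156 and 162 CPM on day 14. Those labelled on held 226 and 209 CPM on day 7 and 132, 130 and 159 CPM on day 14. In the lungs the 8 labelled off ranged from 74.4 to 168 CPM (median 98.9) and the 6 labelled on from 46.3 to 131 CPM (median 119). On day 7 in the pancreas both libraries labelled on lay above all 3 labelled off, and with days pooled the groups overlapped in both organs. Pancreas differences were 0.57 on day 7 and -0.16 on day 14, and lung differences 0.46 and -0.55 (edgeR adjusted *P* = 0.260, 0.386, 0.956 and 0.680). Averaged over these days the label effect was 0.19 ± 0.38 in the pancreas and -0.05 ± 0.33 in the lungs (adjusted *P* = 0.897 and 0.993, with 1.31% and 0.331% of genes called).

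The difference of the label effect between organs was tested directly. *Klf2* was the 1 member of 10 called in liver minus lungs (-2.40 ± 0.48, edgeR adjusted *P* = 0.00471, 6.5% of genes called) and in liver minus pancreas (-2.63 ± 0.52, adjusted *P* = 0.0117, 1.66% of genes called). In lungs minus pancreas 0 of 10 were called (0.0342%). Both calls were lost without the paired-end library, at -1.29 ± 0.39 and -1.53 ± 0.41 (adjusted *P* = 0.0625 and 0.0865), and the second also without the pancreas library labelled off on day 14 from mouse 2, at -2.68 (adjusted *P* = 0.0550). Over all alternatives other than leaving out single libraries the adjusted *P* ran from 7.81e-05 to 0.0652 and from 0.000128 to 0.147. Both calls were also lost with the mouse number as a block, at -2.17 and -2.43 (adjusted *P* = 0.0652 and 0.147). The direction stayed in each of these fits.

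**Figure D3:**
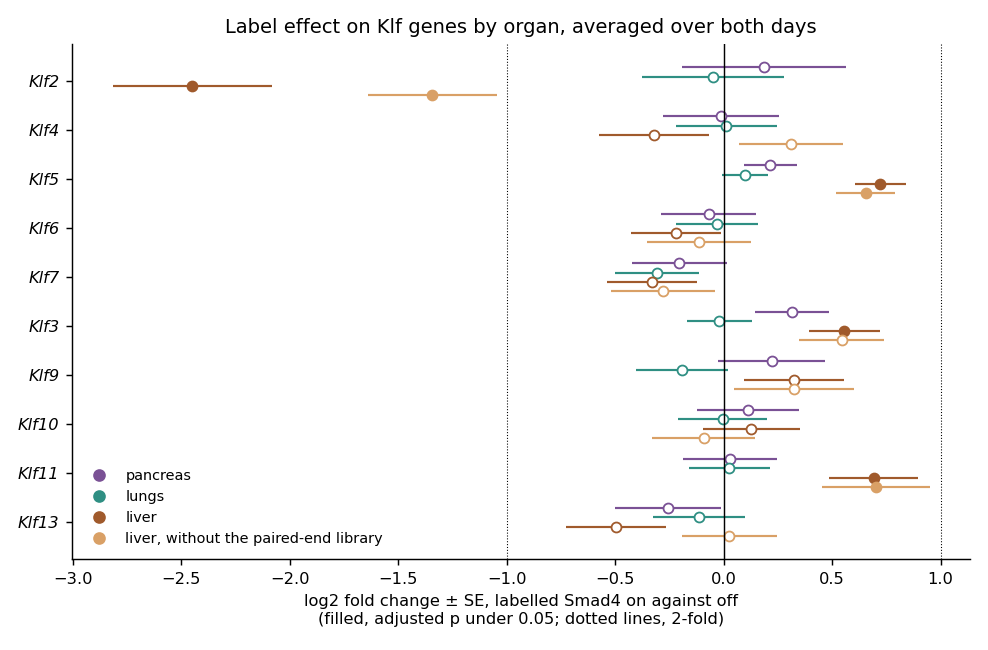
Label effect (labelled Smad4 on against off, log2 fold change with SE as bars) averaged over both days in each organ, with the liver also shown without the paired-end library and filled points for an adjusted *P* under 0.05. *Klf2* in the liver lies at -2.45 with all libraries and at -1.34 without the paired-end library, while the pancreas and lung points of all members lie between -0.31 and 0.31.

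Endothelial and fibroblast markers, in whose cells *Klf2* is also made, were read beside this result. In the liver the fibroblast sum was 327 and 36077 CPM on day 7 and 261, 4353 and 1761 CPM on day 14 in libraries labelled off, and 357 to 3309 CPM in those labelled on. The endothelial sum was 15.5 to 86.3 CPM in the 5 labelled off and 12.3 to 28.6 CPM in the 6 labelled on. The liver library labelled off with the lowest *Klf2*, 69.8 CPM, had 327 CPM of fibroblast markers, under all 6 libraries labelled on, and 15.9 CPM of endothelial markers, inside their range. The lungs, with the highest endothelial sums, had a lower median of *Klf2* than the pancreas. Within libraries without *mt-Co3* counts the liver difference was -1.21 on day 7 (2 against 1 library) and -1.48 on day 14 (2 against 2), and within those with such counts -4.13 and -1.52 (1 against 1 each). In the same contrast 4 of 8 fibroblast markers were called lower (*Col1a1* -2.32, *Col1a2* -3.31, *Col3a1* -2.46 and *Pdgfra* -2.97). The median log2 fold change over the 8 was -1.82, and 1.01 without the paired-end library. Of the endothelial markers *Cdh5* was called lower (-3.32) and *Tek* and *Tie1* higher (1.65 and 1.13), as they were without that library (-1.91, 1.98 and 1.59). The part of endothelial cells or of fibroblasts in the *Klf2* difference was not tested.

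**Figure D4:**
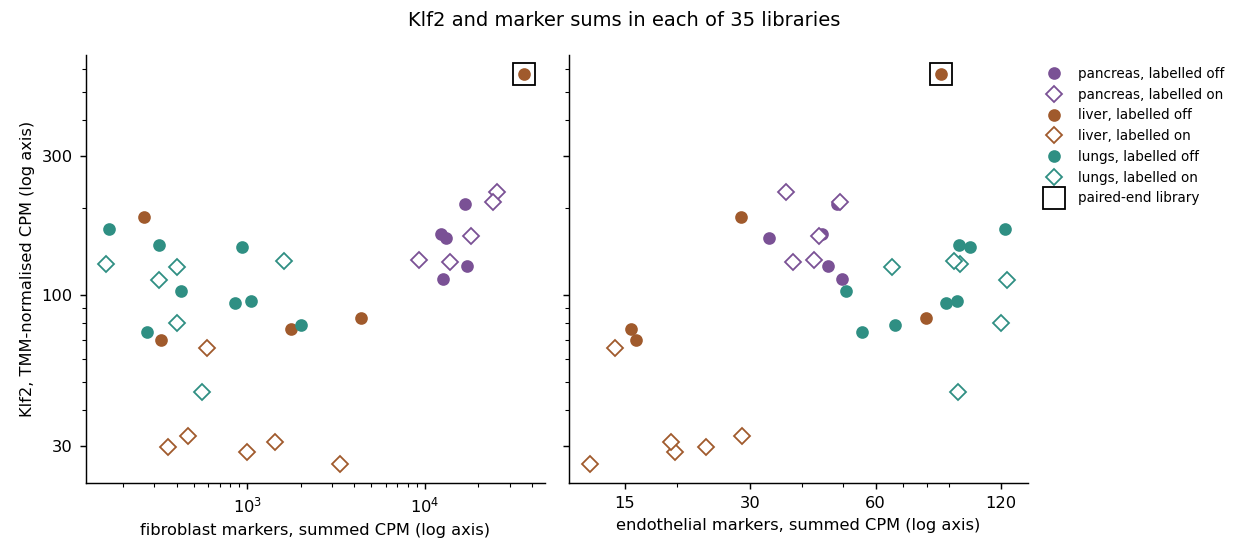
*Klf2* (TMM-normalised CPM, log axis) against the summed CPM of 8 fibroblast markers (left) and 10 endothelial markers (right, log axes) in each library, by organ and label. The paired-end library stands alone at 577 CPM of *Klf2* and 36077 CPM of fibroblast markers, and the 6 liver libraries labelled on hold 6 of the 7 lowest *Klf2* values, the other being a lung library at 46.3 CPM.

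In the same liver contrast *Klf5*, *Klf11* and *Klf3* were higher in libraries labelled on. The carcinoma marker *Epcam* was also called higher (1.42, and 1.04 without the paired-end library), and 9 of 10 immediate-early genes had positive values, of which *Atf3* (0.92) and *Zfp36* (0.93) passed. The part of these in the members' differences was not tested. *Klf5* lay at 146 and 120 CPM on day 7 and at 195, 175 and 228 CPM on day 14 in libraries labelled off. It lay at 287, 263 and 329 CPM on day 7 and at 253, 239 and 249 CPM on day 14 in those labelled on. The groups did not overlap. The difference averaged over days was 0.72 ± 0.12 (edgeR adjusted *P* = 5.95e-05, with 29% of genes passing the adjusted *P*) and 0.65 ± 0.14 without the paired-end library (adjusted *P* = 0.00183). In the lungs *Klf5* differed by 0.10 ± 0.10 and in the pancreas by 0.22 ± 0.12. The difference of liver minus lungs was 0.62 ± 0.16 (adjusted *P* = 0.0150, with 9.54% of genes passing) and lost its pass without the paired-end library (0.56 ± 0.17, adjusted *P* = 0.0662).

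*Klf11* lay at 38.7 and 39.8 CPM on day 7 and at 43.1, 59.5 and 67.5 CPM on day 14 in liver libraries labelled off. Those labelled on held 98.9, 83.4 and 94.2 CPM on day 7 and 82.8, 73.7 and 32.1 CPM on day 14. The groups were apart on day 7 and overlapped on day 14 through the library labelled on at 32.1 CPM. The average difference was 0.69 ± 0.21 (edgeR adjusted *P* = 0.0131) and 0.70 ± 0.25 without the paired-end library (adjusted *P* = 0.0499). On day 7 alone it was 1.15 ± 0.17 (adjusted *P* = 0.0562), beside 1.05 ± 0.21 for *Klf5* (adjusted *P* = 0.0689).

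These day-7 values of the liver depended on the tool and on the libraries. DESeq2 called *Klf2*, *Klf5* and *Klf11* there, with 2842 of 16007 genes called. The single fit of all 12 groups called the same members, with 3097 of 17547 genes called, beside 71 of 16007 in the main fit. Without the paired-end library, with only the library from mouse 1 labelled off, *Klf2* stood at -1.29 and *Klf11* at 1.15. Leaving out the library from mouse 1 left the paired-end library alone in that group, so its calls are not counted. Over the 9 alternatives with all or all but the paired-end library, the adjusted *P* of *Klf11* ran from 2.30e-09 to 0.236.

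*Klf3*, measured at 115 to 168 CPM in the 5 liver libraries labelled off and 123 to 235 CPM in the 6 labelled on, differed by 0.56 ± 0.16 (edgeR adjusted *P* = 0.0119). Without the paired-end library it was at 0.54 ± 0.20 (adjusted *P* = 0.0532). *Klf4*, *Klf6*, *Klf7*, *Klf9*, *Klf10* and *Klf13* did not pass in the liver averaged over days, with values from -0.50 (*Klf13*) to 0.32 (*Klf9*). *Klf4* reached 573 CPM in the paired-end library, against 143 to 387 CPM in the other liver libraries, and its liver value moved from -0.32 to 0.31 without that library.

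**Figure D5:**
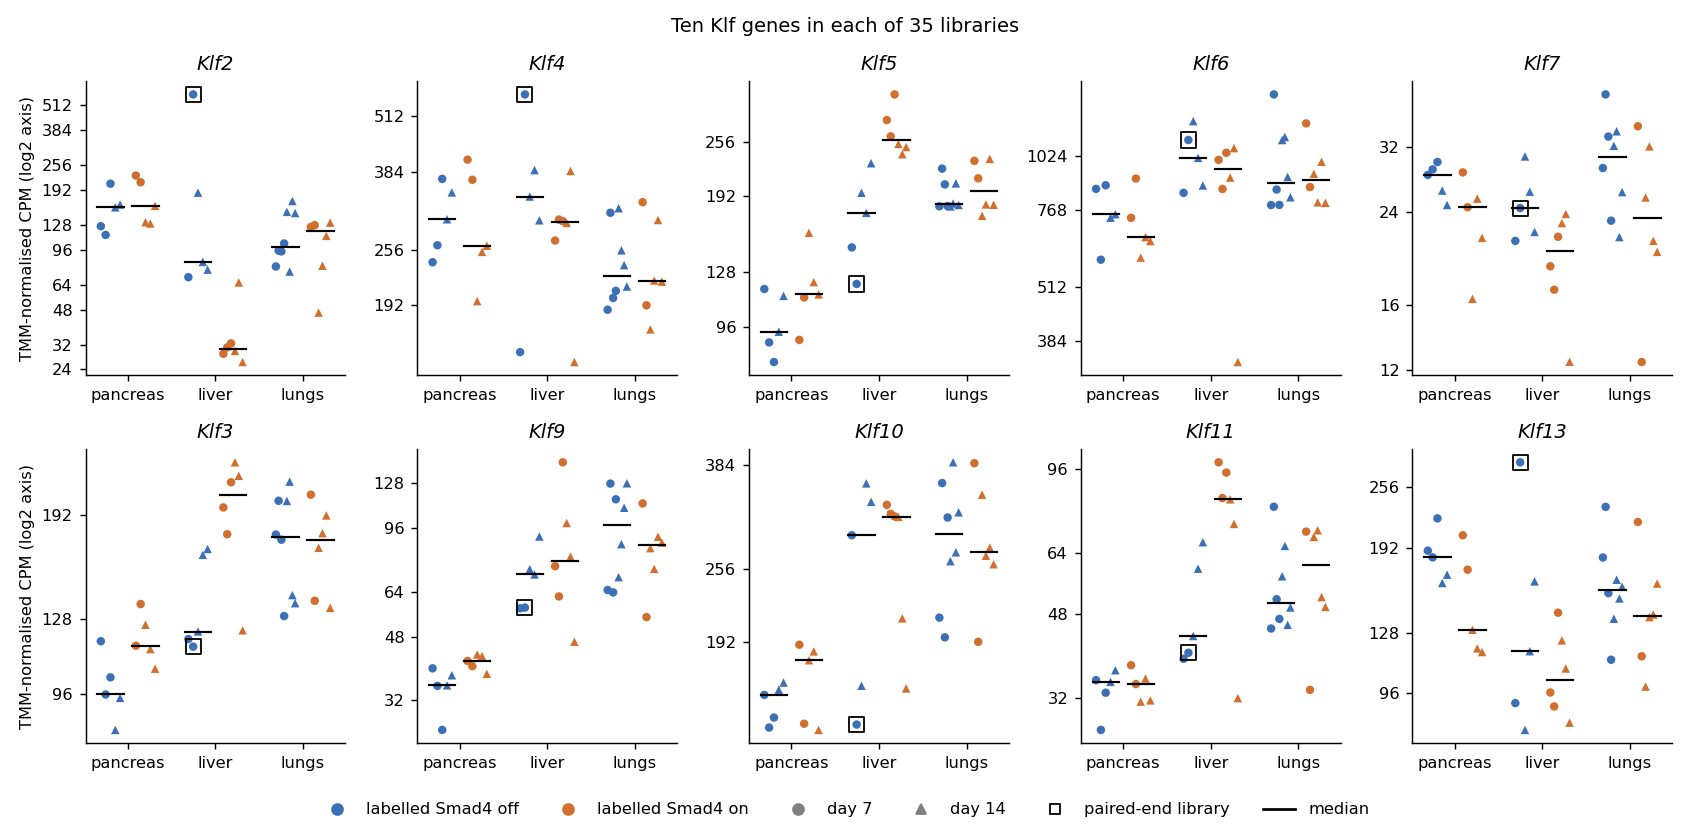
The *Klf* genes in every library (TMM-normalised CPM on a log2 axis), by organ and label, with circles for day 7, triangles for day 14, a square around the paired-end library and the median as a line. In the liver *Klf2* is lower and *Klf5* higher in all 6 libraries labelled on than in the 5 labelled off, and *Klf9* in the pancreas lies under both metastatic organs.

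Day 14 against day 7, averaged over organs and labels, gave 0 of 10 members called, beside 0.137% of all genes, and 0 past the adjusted *P* (1.04%). The members' values ran from -0.34 ± 0.13 for *Klf13* to 0.10 ± 0.07 for *Klf5* on the log2 scale.

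The rest of the family and its partners were read from lists of genes. Of the 16 other KLF and SP genes, 11 had enough counts to be tested in the fit of 12 groups. *Klf12*, which encodes a CtBP-recruiting repressor like *Klf3*, was called lower in liver and lungs than in pancreas (-2.06 and -1.44, edgeR adjusted *P* = 9.32e-06 and 0.000337). It was also called lower in liver libraries labelled on (-1.82, adjusted *P* = 0.00277), and -1.996 (adjusted *P* = 0.00523) without the paired-end library, at 0.251 to 0.694 CPM against 0.725 to 3.19 CPM. *Sp5*, a Wnt-responsive SP gene, was called higher in lungs than in pancreas by 3.04 and lower in liver than in lungs by -2.17, and higher by 1.62 in pancreas libraries labelled on at day 14 (adjusted *P* = 0.0246). *Sp7*, an osteoblast gene, was called between organs at a mean of 0.394 CPM, close to the floor.

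Of 15 KLF regulators and cofactors, 0 were called by label in any comparison, while 5 passed the adjusted *P* lower in the average of organs and days, where 24.6% of all genes passed in either direction. They were *Mef2a* (-0.42), a MEF2 factor of the kind that drives *Klf2*, the kinase gene *Map2k5* (-0.16), the corepressor genes *Ctbp2* (-0.25) and *Sin3b* (-0.19), and the deacetylase gene *Hdac2* (-0.30). Of the 15, 3 passed lower without the paired-end library. *Mef2c* was the regulator called between organs, lower in liver and lungs than in pancreas by -1.998 and -2.42.

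Of 10 known KLF target genes, all tested in the fit of 12 groups, 1 was called higher and 2 lower by label in the liver averaged over days, where 15.7% of all genes were called. The epithelial cadherin gene *Cdh1*, a target of *Klf4*, was higher in libraries labelled on by 1.27 ± 0.27 (edgeR adjusted *P* = 0.000884). *Smad7*, the inhibitory SMAD gene that *Klf11* represses, was lower by -1.10 ± 0.23 (adjusted *P* = 0.000731). The chemokine gene *Ccl5*, a target of *Klf13*, was lower by -3.35 ± 0.80 (adjusted *P* = 0.00259). In the liver *Ccl5* ran from 0.372 to 102 CPM in libraries labelled off, with a median of 1.46 CPM. Their mean was 21.4 CPM, most of it from the library at 102 CPM. In those labelled on *Ccl5* ran from 0.269 to 1.62 CPM, so the groups overlapped. Without the paired-end library *Cdh1* stood at 0.91 and *Smad7* at -0.74, under 2-fold, *Ccl5* at -3.73, and *Thbd*, the thrombomodulin gene, was then called higher (1.97, adjusted *P* = 0.0309). *Smad7* is also a direct gene of the SMAD pathway and *Cdh1* is among the carcinoma markers.

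Between organs *Cdh1* and *Alpi* were called higher and *Thbd* and *S1pr1* lower in liver than in pancreas. *Thbd* and *S1pr1* are endothelial targets of *Klf2*. *S1pr1* was also lower in liver than in lungs by -2.70, where 10 of 10 endothelial markers were called lower, and higher in lungs than in pancreas by 0.81 (edgeR adjusted *P* = 0.0335). The median of the 10 targets was -0.06 in liver against pancreas and -0.33 by label in the liver, beside 0.05 and 0.03 over all genes. The second turned to 0.37 and the first was -0.12 without the paired-end library.

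Several members are immediate-early genes, which rise during cell handling, so each member was set against 10 immediate-early genes and 10 endothelial genes across the 35 libraries, with the group means removed. Of these 20 relations, 1 passed after adjustment (permutation within groups, 100000 resamples, two-sided). *Klf9* rose with the immediate-early genes at a Pearson *r* of 0.60 (adjusted permutation *P* = 0.0414) and a Spearman rho of 0.64 (adjusted permutation *P* = 0.0448). Its *r* was 0.58 without the 2 libraries farthest from the median, where no relation passed, and 0.34 within 23 of the 25 libraries without *mt-Co3* counts, the other 2 being alone in their groups. *Klf13* had a higher *r* of 0.72 and did not pass (adjusted permutation *P* = 0.0647). *Klf2* stood at 0.18 with the immediate-early genes and at 0.31 with the endothelial genes (adjusted permutation *P* = 0.727 and 0.383). Within the 23 libraries without *mt-Co3* counts the order differed, with no test. There *Klf10* (0.72), *Klf11* (0.72), *Klf13* (0.63) and *Klf3* (0.49) stood above *Klf9* with the immediate-early genes. The other members stood below it, down to -0.39 for *Klf2*.

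Pancreas, liver and lung libraries overlapped in the sum of the immediate-early genes, at 8951 to 18961, 8759 to 24812 and 10771 to 19286 CPM. Single genes differed, with *Atf3* called higher in liver and lungs than in pancreas (1.08 and 1.06). *Junb* passed higher in both (0.63 and 0.90, in liver not without the paired-end library). *Fos* (-0.45) and *Jun* (-0.68) passed lower in lungs. Of the 10 genes, 3 passed higher and 2 lower in lungs, and 2 higher and 0 lower in liver. Without the paired-end library *Fos*, *Jun* and *Egr1* stood at -0.44, -0.53 and -0.45 in liver against pancreas.

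The genes closest to each member were sought among 13533 genes over the 35 libraries, which share batch and depth. The measure was the correlation of deviations from the group means. The paired-end library was included, with *Klf2* at 577 CPM against 69.8 CPM in the other library of its group. The closest pair was *Klf11* with *Ets2* (*r* = 0.95), an ETS factor gene, followed by *Rel* (0.90), an NF-κB gene, and *Plk3* (0.88). *Klf10* was closest to *Icam1* (0.90), *Atf3* (0.89) and *Zc3h12a* (0.88), all inducible by stress or inflammation. *Klf9* was closest to *Pim1* (0.82), *Mafk* (0.80) and *Plxnb2* (0.76), and *Klf2* to *Myo1c* (0.85), *Myo1e* (0.85) and *Mprip* (0.84), which encode myosins and a myosin phosphatase partner. *Klf3* was closest to *Ankhd1* (0.90), *Klf4* to *Trak1* (0.82), *Klf6* to *Zfp131* (0.88), *Klf7* to *4932438A13Rik* (0.87) and *Klf13* to *Ski* (0.88), the SMAD corepressor gene. *Klf5* had the lowest closest value, 0.75 with *Larp1b*.

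Among the members themselves, 38 of 45 pairs had a positive correlation, with a median of 0.39. The highest were *Klf3* with *Klf11* (0.82) and *Klf7* with *Klf11* (0.77), and the lowest was *Klf2* with *Klf10* (-0.55). These values describe the 35 libraries, the paired-end library included, and carry no test.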

How the data were processed

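RNA-seq counts of 35 libraries were used. The authors' pipeline, per the labels and the submitters' processing notes, made poly(A)-selected stranded libraries read at 75 bp on a HiSeq, and used FastQC 0.11.5, Trimmomatic 0.36, STAR 2.5.3a and featureCounts 1.6.3 with the mouse genome GRCm38. The strand setting was not given in the sources used here, so reads from overlapping antisense genes may be included. The authors deposited the counts per gene as whole numbers without normalization, with a transcript length for each gene, and 0 columns were left unmatched. The paired-end library was kept unless stated.

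Genes were kept by filterByExpr at a minimum count of 10 and a total of at least 15. TMM factors were applied and the fits used the quasi-likelihood test of edgeR 4.0.16 in R 4.3.3, with robust estimates and Benjamini-Hochberg adjustment over all genes tested. A standard error is the log2 fold change divided by the root of the F statistic. Each of 6 comparisons within an organ and day used its own libraries, and 8 contrasts came from 1 fit of 12 groups. The label effect in each organ averaged over days was added after seeing the data, as 3 contrasts. Nothing says that libraries of a group came from separate cultures, so *P* values measure the spread between mice as labelled. No 2 libraries held identical counts.

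Named were all 10 members in each comparison, of the related genes those called by list, and the 3 genes nearest to each member (mean of at least 1 CPM, pseudocount 0.5). The members and lists were chosen with earlier results of these data known. Mouse numbers counted as matched where every pair of at least 3 correlated over 0.1 in deviations from the group means. This held in the lungs on day 14 (0.473 to 0.627) and in no other comparison. The study assigned mice at random to Dox kept or withdrawn, so equal numbers do not mark the same mouse. In those lungs mice 3 and 4 had *mt-Co3* counts under both labels and mice 1 and 2 had none, so matching cannot be told apart from that split. Alternatives were DESeq2 1.42.0, its size factors in edgeR, all genes unfiltered, a floor of 10 counts per library, no fold threshold, a covariate for *mt-Co3* counts, the mouse block, a single fit for the comparisons within an organ and day, and leaving out each library. The edgeR fits were tested on simulated counts. Correlations used Python 3.11.15 and figures matplotlib 3.10.9.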

Additional observations from a re-analysis of the deposited data

Results flagged for a closer look

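In the lungs on day 7, the library labelled off from mouse 2 stood apart from the other 3 of its group in *Klf4* (310 CPM) and *Klf6* (1418 CPM). On day 14 in the lungs, the library labelled off from mouse 3 stood apart in *Klf5* (205 CPM, the other 3 at 182 to 184 CPM). These are 3 of 30 combinations of gene and group tested, and chance gives about 1 in 20.

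The label effect on *Klf2* differed between liver and lungs (log2 -2.40) and between liver and pancreas (log2 -2.63), and that on *Klf5* between liver and lungs (log2 0.62), each by the test of the difference itself. None of these passed without the paired-end library.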

How the results depend on the processing

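No member was called under any alternative within the pancreas on day 7, the lungs on either day or the liver on day 14, nor in liver against lungs, in the lungs minus pancreas difference of label effect or between days. *Klf9* in lungs against pancreas was called under all 8 alternatives and kept 1.06 to 1.35 in fits without single libraries.

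In the liver on day 7 no member was called in the main fit, beside 71 of 16007 genes. DESeq2 and the single fit of 12 groups called 3, beside 2842 of 16007 and 3097 of 17547 genes. No filter, at least 10 counts in every library and the *mt-Co3* covariate called 1 each. Beside these, 977 of 29248, 354 of 13141 and 1022 of 16007 genes were called. Fits that left 1 library labelled off there are not counted. In liver against pancreas, where *Klf2*, *Klf5* and *Klf9* sat near 2-fold, DESeq2, its size factors, the *mt-Co3* covariate and the replicate block called 1 each. Beside these, 3779, 3657, 3462 and 3603 of 17547 genes were called. At least 10 counts called 1, beside 1439 of 11725 genes, and no filter 2, beside 3857 of 34826 genes. Without the paired-end library *Klf2*, *Klf5* and *Klf9* stood at -1.54, 1.01 and 1.00. Fits without single libraries called 0 to 3. Without a fold threshold the counts were 2 in the pancreas on day 14, 3 in the average of organs and days, 6 in each metastatic organ against pancreas, 2 in the liver minus lungs difference and, in the added liver contrast averaged over days, 4.

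Both differences of label effect fell to 0 members called without the paired-end library and with the replicate block (mouse number). *Klf2* was at -2.17 (adjusted *P* = 0.0652) and -2.43 (adjusted *P* = 0.147) with the block and at -1.29 and -1.53 without that library. Fits without single libraries called 0 to 1 in each, with *Klf2* at -2.84 to -1.29 and -3.08 to -1.53. Beside these and liver against pancreas, the block changed no count of members called. In the lungs on day 14 same-numbered mice correlated, and their numbers were also split by *mt-Co3* counts. Outside that comparison the correlations ran from -0.312 to 0.541 and the samples share only a number. There the block took the genes called from 192 to 0 in the pancreas and from 71 to 0 in the liver on day 7. The cause of these shifts was not tested. The liver contrast of *Klf2* averaged over days kept its call under all 8 alternatives, at -2.48 to -1.34. Of the 20 correlations, 0 passed without the 2 farthest libraries and 3 with a pseudocount of 0.05. Over 1350 values under alternatives, 45 changed sign, 0 of them among the 190 that had passed.

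Groups of 2 to 4 libraries, 1 of the 2 liver libraries labelled off on day 7 being the paired-end library, limit what the comparisons within an organ and day can show, while depth does not limit the members, all far above 3 counts.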
